A study of Mus musculus with 15 samples.

Results

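Crem, Fhl5, Kif17, Tbpl1, Taf7l, Rfx2, Sox30, Tcfl5 and Mybl1 are 9 genes whose products regulate transcription in spermatocytes and spermatids. They were chosen by name and function, with earlier results of these data known. They are 9 of the 23510 gene identifiers in the expression table, and all 9 passed the filter that left 14514 genes for testing. Levels are given as FPKM, the sequenced fragments of a gene scaled to its length and to the library's total. After knockdown of the M5 muscarinic receptor in mouse testis, the transcripts of Kif17, Rfx2 and Sox30 were lower than in the vector control, at 88.4 ± 4.28 against 114 ± 2.21, 87.5 ± 3.96 against 111 ± 5.42 and 79.5 ± 3.50 against 109 ± 8.66 FPKM (mean ± SD, n = 3 each). Crem itself stood at 78.9 ± 4.47 against 75.1 ± 2.50 FPKM. The calls for Kif17, Rfx2 and Sox30 were not kept once a trend with the GC content of genes was removed.

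The study asked how knockdown of muscarinic acetylcholine receptors alters spermatogenesis, and 15 testis libraries of ICR mice were read, 3 in each of 5 groups. Con is described in the labels only as a control. MNC received the vector control of the receptor lentivirus, and M1, M3 and M5 received lentivirus with short hairpin RNAs against the receptor of that name, encoded by Chrm1, Chrm3 and Chrm5. By the study's methods, virus was injected into the testes of 5-week-old males, 3 hairpins were made for each gene, and tissue was taken after 10 days. No promoter restricted the knockdown to 1 testicular cell type in the sources used here, so each value is an average over the cells of the tissue, and fewer cells of a type and less RNA per cell cannot be told apart. The labels do not say that the 3 libraries of a group came from 3 animals, so the p-values measure the spread between libraries.

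Spermatids shape the sperm head and tail while transcription winds down, so their gene programme is switched on in advance and in a fixed order. MYBL1 (A-MYB) and TCFL5 act in pachytene spermatocytes, RFX2 and SOX30 carry the programme into round spermatids, and CREM then switches on the late genes for DNA packaging and the flagellum through the cyclic AMP response element. FHL5, also called ACT, is the coactivator of CREM in spermatids, and the motor protein KIF17 moves FHL5 between nucleus and cytoplasm. TBPL1, a relative of the TATA-binding protein, and TAF7L, a germ cell form of TAF7, belong to the core promoter machinery.

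Promoter sequences of 7 of the 9 genes were matched in RefSeq (GRCm38.p6), and those of Fhl5, Kif17 and Rfx2 are shown because they hold a letter match to the CREM or RFX motif. Kif17 and Rfx2 are also 2 of the genes that were lower in M5, and Sox30, the other lower gene, held no match to any searched motif. Each run covers the 130 bases before the start of the gene, on the gene's strand, with the matches in capitals. They are Kif17 at chr4:138262121-138262250 (plus strand), Fhl5 at chr4:25242853-25242982 (minus strand) and Rfx2 at chr17:56831009-56831138 (minus strand).
Kif17: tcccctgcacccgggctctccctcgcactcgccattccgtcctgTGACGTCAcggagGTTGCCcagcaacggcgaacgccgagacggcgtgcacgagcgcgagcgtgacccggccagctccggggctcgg
Fhl5: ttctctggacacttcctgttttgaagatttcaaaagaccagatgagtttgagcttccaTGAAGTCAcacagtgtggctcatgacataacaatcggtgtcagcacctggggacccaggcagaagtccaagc
Rfx2: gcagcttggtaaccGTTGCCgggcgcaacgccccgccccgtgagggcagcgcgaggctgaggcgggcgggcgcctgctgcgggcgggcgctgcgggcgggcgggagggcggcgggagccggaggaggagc

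The capitals in Kif17 mark a full cyclic AMP response element, TGACGTCA, that begins 86 bases upstream of the start, and an RFX core, GTTGCC, that begins 73 bases upstream. Fhl5, which has 2 listed promoters, holds in 1 of them a variant element, TGACTTCA, read here on the opposite strand, 72 bases upstream, and Rfx2 holds the RFX core 116 bases upstream. Both strands were searched from 250 bases before to 50 bases after the start, and no printed match overlaps another. Of 32851 mouse promoters of the same length outside chromosome 18, 1.79% held TGACGTCA, 1.52% held TGACTTCA and 12.5% held GTTGCC. Of 11 spermatid genes listed as downstream of CREM and found in that set, 0 held TGACGTCA, 1 (Prm1) held TGACTTCA and 0 held GTTGCC. The other searched motifs were the E-box CACGTG, found in Taf7l and in 7.15% of promoters, and the MYB motif AACTGNC, found in Tcfl5 and in 12.8%. These are matches of letters, and no binding was measured.

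Summed FPKM ran from 470243 to 513817 per library, and at least 20619 genes were above 0 in each. Read totals are not in the table. The value of 1 read, estimated from the lowest levels, put relative depth between 0.922 and 1.01 over the libraries. Only values close to each gene's lowest were kept for this estimate, so a larger difference in depth would not show in it. In the labels the titles give testis and the extraction protocol names sperm, and markers of cells that stay in the testis were present in every library, with 372 to 686 summed FPKM for 8 Sertoli cell genes and 658 to 3159 for 6 Leydig cell genes. The transcripts of the targeted receptors were too low to check the labels: Chrm5 stood at 0.37, 0.22 and 0.37 FPKM in M5 and 0.43, 0.23 and 0.43 in MNC, Chrm1 at 0.14, 0.11 and 0.09 in M1 and 0.10, 0.11 and 0.11 in MNC, and Chrm3 at 0.08, 0.04 and 0.11 in M3 and 0.05, 0.01 and 0.05 in MNC, and the groups overlapped in each case. Of the 15 libraries, 5 were nearest to a library of another group by Pearson r across genes: MNC 2 and M1 3 to each other (0.991), M3 1 to M1 3 (0.988), M3 2 to M1 1 (0.989) and M3 3 to M5 2 (0.984). For the third M3 library the median r was 0.980 with M5 and 0.978 with the other M3 libraries.

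Crem, on chromosome 18, codes for both activators and repressors through its isoforms, and the gene level value is their sum. Crem levels were 70.0, 72.6 and 67.1 FPKM in Con, 75.4, 77.5 and 72.5 in MNC, and 77.5, 78.8 and 78.6 in M1. They were 82.4, 74.8 and 82.0 in M3 and 83.9, 77.4 and 75.3 in M5. Crem was the steadiest of the 9 genes within groups (SD 0.060 on the log2 scale, against a median of 0.134 over all tested genes), and the highest of the 15 libraries was 1.25-fold above the lowest. Of the 12 injected libraries, 11 lay above all Con libraries. In the order M3, M5, M1, MNC, Con the neighbours M1 and MNC did not overlap, and the other neighbours did. The shares of all tested genes for this gap and for 11 libraries above Con are not given here. M1 against MNC was not among the comparisons counted for overlap, so the shares of the others do not measure this gap. In those others, groups did not overlap in 17.1% (M3 against MNC) to 46.5% (MNC against Con) of tested genes.

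**Figure D1:**
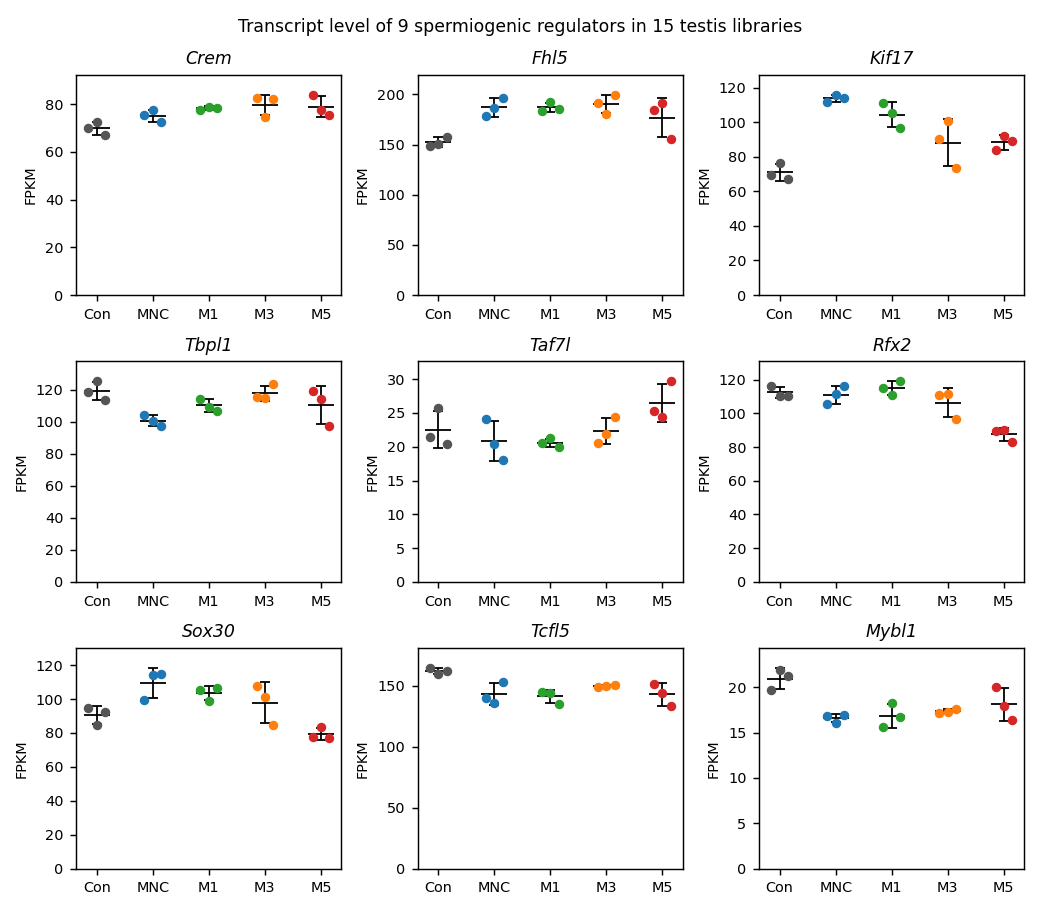
Transcript level in FPKM (vertical axis, from 0) of the 9 regulators in the 5 groups (horizontal axis), with 1 point per library and the mean and SD of 3 libraries as a bar with whiskers. The M5 libraries of Rfx2 (83.0 to 90.1) and Sox30 (77.2 to 83.5) lie below all other groups, and the Con libraries of Tcfl5 lie above all others.

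Fhl5, on chromosome 4, was the most abundant of the 9, at rank 485 of 14514 tested genes by mean FPKM. Its levels were 149, 151 and 158 FPKM in Con, 178, 186 and 197 in MNC and 183, 192 and 186 in M1. They were 192, 181 and 199 in M3 and 184, 191 and 155 in M5, where the third library fell inside the Con range. Kif17, also on chromosome 4, had the widest span of group means, 0.68 log2 units. Its levels were 69.6, 76.4 and 66.8 FPKM in Con, 111, 116 and 114 in MNC and 111, 105 and 96.7 in M1. They were 90.2, 101 and 73.4 in M3 and 83.7, 92.1 and 89.3 in M5. By group mean the order of Kif17 was MNC, M1, M5, M3, Con. MNC and M1 did not overlap, and M1 and M5 did not, as in 33.7% of tested genes for M5 against M1. The share of tested genes for M1 against MNC is not given here. M3 overlapped M1, M5 and Con.

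Tbpl1, on chromosome 10, measured 119, 125 and 114 FPKM in Con and 104, 100.4 and 97.5 in MNC. It measured 115, 109 and 107 in M1, 116, 115 and 123 in M3 and 119.5, 114 and 97.1 in M5. Con was the highest group and MNC the lowest. Taf7l, on the X chromosome, was at 21.5, 25.7 and 20.4 FPKM in Con, 24.0, 20.4 and 18.1 in MNC and 20.6, 21.2 and 20.0 in M1. It was at 20.6, 21.9 and 24.5 in M3 and 25.3, 24.3 and 29.7 in M5, so M5 was the highest group and overlapped Con, the next in order. Taf7l had the largest spread within groups of the 9 (SD 0.144 on the log2 scale).

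Rfx2, on chromosome 17, measured 116, 110.4 and 110.5 FPKM in Con, 105, 111 and 116 in MNC and 115, 111 and 119 in M1. It measured 111, 111 and 96.7 in M3 and 89.5, 90.1 and 83.0 in M5. All 3 M5 libraries lay below the other 12. Sox30, on chromosome 11, was at 94.98, 84.7 and 92.4 FPKM in Con, 99.4, 114 and 115 in MNC and 105, 98.7 and 107 in M1. It was at 108, 101 and 84.5 in M3 and 77.8, 83.5 and 77.2 in M5, and the M5 libraries were again the lowest 3. Over all tested genes, M5 did not overlap MNC in 32.1% and did not overlap M1 in 33.7%. The share with M5 below all 12 other libraries is not given here. The third M3 library, the one nearest to M5 across all genes, held the lowest M3 value of Kif17, Rfx2 and Sox30.

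**Figure D2:**
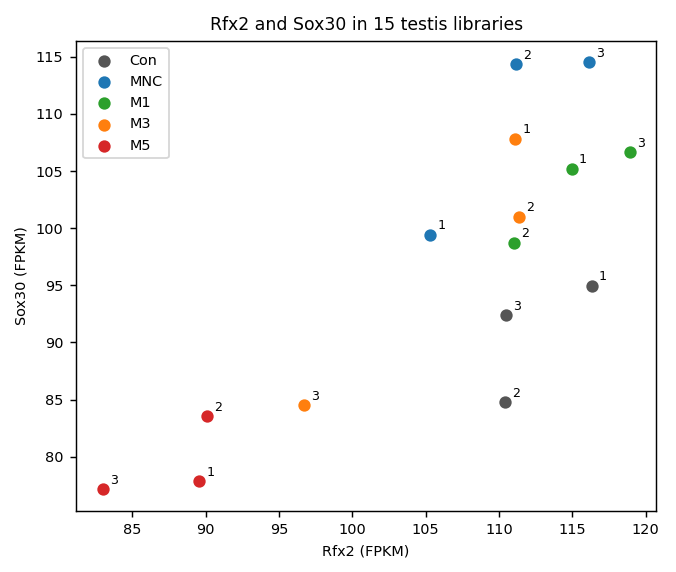
Rfx2 (horizontal axis, FPKM) against Sox30 (vertical axis, FPKM), with 1 point per library, coloured by group and numbered by replicate; both axes start above 0. The 3 M5 libraries sit at the lower left, with the third M3 library (96.7 and 84.5 FPKM) beside them and the Con libraries at higher Rfx2.

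Tcfl5, on chromosome 2, measured 165, 159.9 and 162 FPKM in Con and 140.4, 136 and 153 in MNC. It measured 145, 144 and 135 in M1, 149, 149.9 and 151 in M3 and 152, 144 and 133 in M5. All 12 injected libraries lay below the 3 Con libraries, as was true of 11.5% of tested genes. Mybl1, on chromosome 1, was the least abundant of the 9, at 19.6, 21.9 and 21.2 FPKM in Con and 16.8, 16.1 and 17.0 in MNC. It was at 15.6, 18.2 and 16.7 in M1, 17.2, 17.2 and 17.6 in M3 and 20.0, 17.96 and 16.4 in M5. Here 11 of 12 injected libraries lay below all Con libraries, the exception being the first M5 library. The share of tested genes with 11 libraries below Con is not given here.

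MNC against Con showed what differed between the vector control and the other control group. Kif17 and Fhl5 were higher in MNC and Mybl1 and Tbpl1 were lower, so 4 of the 9 genes were called, while 20.4% of all tested genes were (8.03% higher and 12.4% lower). Differences are between mean log2(FPKM + 1) values, tested with limma, 2-sided, and a call is an adjusted p under 0.05 (Benjamini-Hochberg over all tested genes). Kif17 was higher by 0.68 (SE 0.059, adjusted p = 0.0107), from 70.9 ± 4.94 to 114 ± 2.21 FPKM. Fhl5 was higher by 0.29 (SE 0.052, adjusted p = 0.0241). Mybl1 differed by -0.31 (SE 0.059, adjusted p = 0.0254) and Tbpl1 by -0.24 (SE 0.052, adjusted p = 0.0312). Centred on the median gene of each library, Mybl1 stood at -0.22 (adjusted p = 0.0551) and Tbpl1 at -0.15 (adjusted p = 0.0555), and with the GC trend removed at -0.20 (adjusted p = 0.0754) and -0.14 (adjusted p = 0.0499).

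Sox30 (0.27, adjusted p = 0.052) and Tcfl5 (-0.18, adjusted p = 0.063) did not pass the threshold in MNC against Con, although their groups did not overlap, as in 46.5% of tested genes. Crem differed by 0.10 (95% interval -0.02 to 0.22, adjusted p = 0.171), by 0.19 (adjusted p = 0.043) when each library was centred on its median gene, and by 0.20 (adjusted p = 0.0282) without the GC trend. The median over all tested genes was -0.095, and 39.3% of called genes were higher, against 77.5% after centring. Without the first Con library no member was called (Kif17 then had an adjusted p of 0.0831), without Con library 2 or MNC library 2 only Kif17 was, and without MNC library 3 Kif17 and Tcfl5 were.

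Against Con, the 3 knockdown groups are given side by side, and all share the same Con libraries with each other and with MNC against Con. Kif17 was higher in M1 by 0.55 (adjusted p = 0.00873) and in M5 by 0.31 (adjusted p = 0.0238), and stood at 0.30 in M3 (adjusted p = 0.106). Fhl5 was higher in M1 by 0.29 (adjusted p = 0.00963) and in M3 by 0.32 (adjusted p = 0.0281), and stood at 0.21 in M5 (adjusted p = 0.136). Crem was higher in M1 by 0.16 (adjusted p = 0.0294), and stood at 0.19 in M3 (adjusted p = 0.0717) and 0.17 in M5 (adjusted p = 0.094).

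Mybl1 was lower in M1 (-0.30, adjusted p = 0.0239) and in M3 (-0.26, adjusted p = 0.0356) than in Con. Tcfl5 was lower (-0.19, adjusted p = 0.0194) and Sox30 higher (0.19, adjusted p = 0.044) in M1, and Rfx2 was lower in M5 (-0.36, adjusted p = 0.00907). These calls were 6 of 9 genes in M1, 2 in M3 and 2 in M5, beside 34.2%, 22.1% and 21.7% of all tested genes. The median over all tested genes was -0.12 in M1, -0.13 in M3 and -0.044 in M5. Tcfl5 in M3 stood at -0.11, not below that median.

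**Figure D3:**
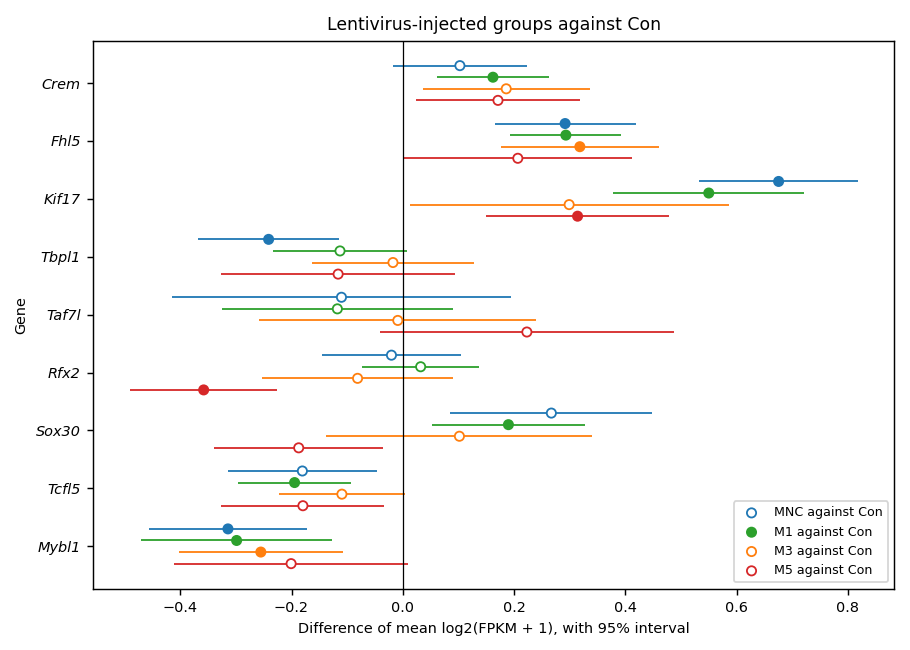
Difference of mean log2(FPKM + 1) from Con (horizontal axis) with its 95% interval for each of the 9 genes (vertical axis) in MNC, M1, M3 and M5, 3 libraries a group; filled points passed an adjusted p of 0.05. Kif17 reaches 0.68 in MNC, Fhl5 and Crem lie to the right of 0 in all 4 groups, and Tcfl5 and Mybl1 lie to the left, although Tcfl5 in M3 (-0.11) is not below the median of all genes there (-0.13).

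M5 against MNC, both injected with lentivirus, addressed the M5 knockdown. Kif17, Rfx2 and Sox30 were lower, 3 of the 9 genes, beside 5.65% of all tested genes called and 2.89% called lower. Sox30 differed by -0.45 (SE 0.074, adjusted p = 0.0291), Kif17 by -0.36 (SE 0.056, adjusted p = 0.0258) and Rfx2 by -0.34 (SE 0.062, adjusted p = 0.0364). Against Con, M5 held a higher level of Kif17 (88.4 against 70.9 FPKM) and a lower level of Rfx2, so the direction for Kif17 turned with the control used. Sox30 stood at -0.19 in M5 against Con (adjusted p = 0.0819) and was not called.

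Crem differed between M5 and MNC by 0.07 (95% interval -0.08 to 0.22, adjusted p = 0.542), with overlapping libraries. Taf7l stood 0.33 higher in M5 (95% interval 0.04 to 0.63), with an adjusted p of 0.158 and groups that did not overlap, as in 32.1% of tested genes. The intervals of the other members held 0, and their differences ran from -0.085 for Fhl5 to 0.12 for Tbpl1.

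**Figure D4:**
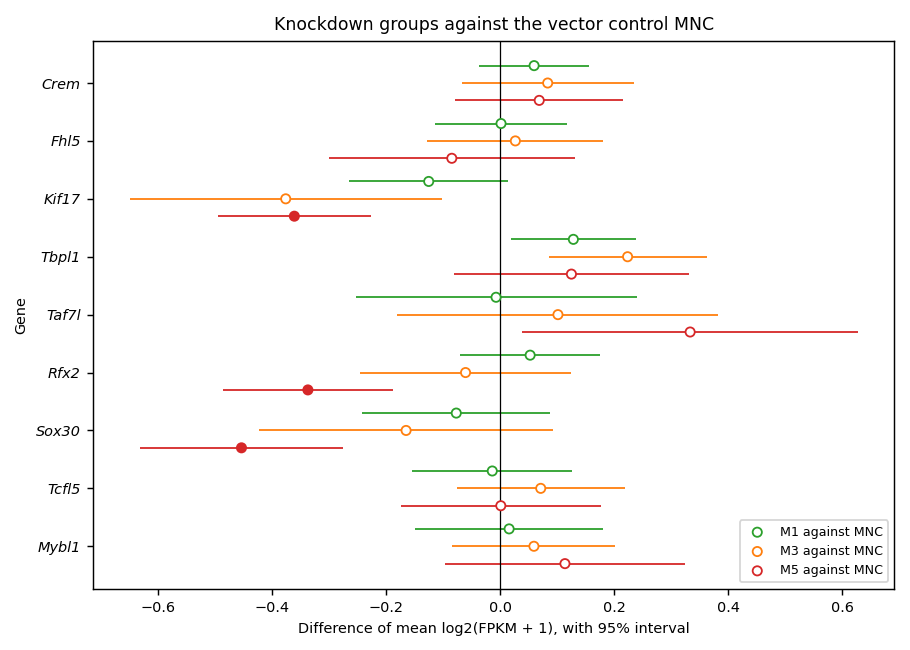
Difference of mean log2(FPKM + 1) from MNC (horizontal axis) with its 95% interval for each of the 9 genes (vertical axis) in M1, M3 and M5, 3 libraries a group; filled points passed an adjusted p of 0.05. The only filled points are Kif17, Rfx2 and Sox30 in M5, between -0.34 and -0.45.

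The GC content of transcripts moved with the differences between M5 and MNC across genes (Spearman rho -0.455 over 13364 genes, which are not independent replicates). Kif17 (58.0% GC), Rfx2 (58.5%) and Sox30 (54.2%) lie above the median of 50.3%, as does Tcfl5 (56.3%), which differed by 0.00096 log2 units, and the other 5 genes have 39.3% to 45.4%. With the trend removed, an alternative added after the data were seen, Sox30 stood at -0.39 (adjusted p = 0.127), Kif17 at -0.23 (adjusted p = 0.21) and Rfx2 at -0.20 (adjusted p = 0.368). None of the 9 genes was then called, and 88 genes were called in all, against 820 before. With each library left out in turn, the differences ran from -0.39 to -0.32 for Kif17, from -0.37 to -0.30 for Rfx2 and from -0.52 to -0.42 for Sox30. All 3 passed the test without M5 library 3, only Sox30 without MNC library 1, and none without M5 library 1 or 2 or MNC library 2 or 3. Markers of other cells moved with the contrast as well. Summed FPKM of 5 red blood cell genes was 148 to 491 in M5 and 21.8 to 35.3 in MNC, with 3 of 5 genes called higher, beside 5.65% of all tested genes called. That of 8 spermatocyte genes was 502 to 567 against 452 to 474, although 4 of these genes stood higher in M5 and 4 lower. Summed FPKM of 8 round spermatid genes was 1217 to 1320 in M5 against 1393 to 1416 in MNC. Of these genes 3 stood higher in M5 and 5 lower, and 1 (Acr) was called, lower, beside 5.65% of all tested genes called. The part of these cells and of GC content in the result was not tested.

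**Figure D5:**
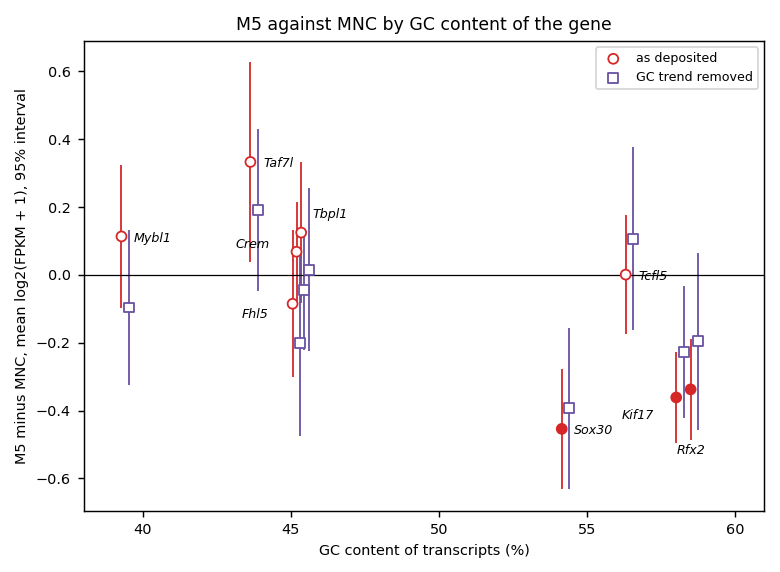
Difference of mean log2(FPKM + 1), M5 minus MNC (vertical axis), against the GC content of each gene's transcripts in percent (horizontal axis) for the 9 genes, with 95% intervals; circles are the values as deposited, squares those with the GC trend removed (drawn slightly to the right), and filled symbols passed an adjusted p of 0.05. Sox30, Kif17 and Rfx2 are filled as deposited and open once the trend is removed.

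M1 and M3 against MNC gave no called member. In M1 against MNC no gene of 14514 was called (0.0%) by limma, whereas 862 (5.94%) stood under 0.05 before adjustment. The smallest p-values of members there belonged to Tbpl1 (0.13) and Kif17 (-0.13), with an adjusted p of 0.819 each, and Crem stood at 0.06 (95% interval -0.04 to 0.16). In M3 against MNC 1 gene was called (0.00689%). Kif17 differed by -0.38 (95% interval -0.65 to -0.10) and Tbpl1 by 0.22, with an adjusted p of 0.518 each, and neither gene's groups overlapped, as in 17.1% of tested genes. Sox30 stood at -0.17 and Crem at 0.08 (adjusted p = 0.583 and 0.616). Without the third M3 library, Kif17 stood at -0.25 (adjusted p = 0.757), Sox30 at -0.065 and Rfx2 at 0.0060.

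M5 was also compared directly with the other knockdown groups, which tests whether its difference from MNC is shared. Against M1, Rfx2 was lower, at -0.39 (SE 0.054, adjusted p = 0.0164), and Sox30 at -0.38 (SE 0.055, adjusted p = 0.0187), making 2 of 9 genes beside 6.75% of all tested genes called and 3.52% called lower. Taf7l stood at 0.34 (adjusted p = 0.0616), Kif17 at -0.24 (adjusted p = 0.088) and Crem at 0.0090 (95% interval -0.12 to 0.14). Without the GC trend, Rfx2 stood at -0.31 (adjusted p = 0.159) and Sox30 at -0.35 (adjusted p = 0.0899) against M1. The M5 and M1 libraries of both genes did not overlap, as in 33.7% of tested genes. With each library left out in turn, Rfx2 ran from -0.41 to -0.35 and Sox30 from -0.41 to -0.36. Both passed the test without M5 library 3, only Sox30 without M1 library 2, only Rfx2 without M5 library 1, and neither without M1 library 1 or 3 or M5 library 2.

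Against M3, no member passed the test, as only 0.0138% of tested genes did. Rfx2 stood at -0.28 and Sox30 at -0.29 (adjusted p = 0.338 each), Taf7l at 0.23 (adjusted p = 0.352) and Crem at -0.015 (adjusted p = 0.925). Kif17, called lower in M5 than in MNC, was at nearly the same level in M5 and M3. It stood at 88.4 FPKM in M5 and 88.1 in M3 (0.015, adjusted p = 0.952). Without the third M3 library, Rfx2 stood at -0.34 (adjusted p = 0.073) and Sox30 at -0.39 (adjusted p = 0.066).

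Among 18 partners of CREM and members of the cyclic AMP route, 1 was lower and none higher in M5 than in MNC, where 5.65% of all tested genes were called, so the count is near that of genes at large. This was Prkaca, a catalytic subunit of protein kinase A, at 45.6 against 61.1 FPKM (-0.42, adjusted p = 0.0163), and it was lower against M1 too (-0.37, adjusted p = 0.014). In MNC against Con, where 20.4% of all tested genes were called, Adcy10, the soluble adenylyl cyclase, was higher (0.31, adjusted p = 0.0194). Fhl1 and Fhl2, relatives of Fhl5, were lower there (-0.45 and -0.56). The median of the 18 genes was -0.061 in M5 against MNC and -0.0013 in MNC against Con.

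Of 12 genes listed as spermatid genes downstream of CREM, 3 were higher in MNC than in Con, where 8.03% of all tested genes were, and 11 had a positive difference. Smcp, of the mitochondrial capsule, rose by 1.16 from 1033 to 2268 FPKM, Odf1, of the outer dense fibres, by 0.96, and Gapdhs, the sperm form of a glycolytic enzyme, by 0.79 (adjusted p = 0.0173, 0.0212 and 0.0268). Their median difference was 0.58, beside -0.095 over all tested genes. In M5 against MNC, where 5.65% of all tested genes were called, only Odf1 was, lower at 938 against 1329 FPKM (-0.51, adjusted p = 0.0337). In that comparison 6 genes stood higher and 6 lower, with a median of 0.015. Against M1, where 6.75% of all tested genes were called, Odf1 (-0.59) and Tnp2, a transition protein that replaces histones, (-0.71) were lower in M5. The list overlaps with the elongating spermatid markers, whose summed FPKM ran from 10093 to 20040 in Con and from 20503 to 26619 in MNC.

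Of 11 tested core promoter genes, Taf7, the widely expressed counterpart of Taf7l, was higher in M5 than in MNC (8.26 against 5.71 FPKM, 0.46, adjusted p = 0.0374) and than in M1 (0.53, adjusted p = 0.0209). Taf7 and Gtf2b, which encodes TFIIB, were lower in MNC than in Con (-0.34 and -0.28). Of 6 other RFX genes, Rfx4 (29.7 against 40.0 FPKM, -0.41, adjusted p = 0.0324) and Rfx1 (23.4 against 31.7 FPKM, -0.42, adjusted p = 0.0389) were lower in M5 than in MNC, and both were lower against M1 (-0.29 and -0.37). In MNC against Con, Rfx8 was lower (-0.54) and Rfx3 and Rfx4 were higher (0.27 and 0.20). Of all tested genes, 5.65% were called in M5 against MNC, 6.75% in M5 against M1 and 20.4% in MNC against Con. The core promoter counts (1, 1 and 2 of 11) are near those of genes at large. With the GC trend removed from M5 against MNC, Prkaca, Odf1, Taf7, Rfx4 and Rfx1 had adjusted p-values of 0.0956, 0.128, 0.191, 0.088 and 0.128.

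None of 7 other SOX genes was called in a knockdown group against MNC or between knockdown groups. Sox5 was higher in MNC than in Con (0.37, adjusted p = 0.0298), where 8.03% of all tested genes were called higher. Mybl2, the 1 other MYB gene tested, stood at 4.07 FPKM in M5 and 5.40 in MNC (-0.34, adjusted p = 0.115). Of 8 genes of the pachytene piRNA route, which MYBL1 is known to switch on, 5 were lower in MNC than in Con, where 12.4% of all tested genes were, and all 8 had a negative difference, with a median of -0.27 beside -0.095 over all tested genes. Tdrd9 (-0.41), Mov10l1 (-0.38), Tdrd1 (-0.32) and Tdrd6 (-0.21) were among them (adjusted p = 0.0192, 0.0168, 0.0256 and 0.0244). None of the 8 was called in M5 against MNC, where their median was -0.094. Of 8 spermatocyte markers, which share Piwil1 with that list, 4 were lower in MNC than in Con, at 452 to 474 summed FPKM against 566 to 587. In M5 against MNC, 4 of the 8 spermatocyte markers stood higher and 4 lower. The 2 called, beside 5.65% of all tested genes, were the synaptonemal genes Hormad1 (0.70, adjusted p = 0.00634) and Sycp1 (0.79, adjusted p = 0.0125), both higher.

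The likeness of 2 profiles was measured as the mean absolute difference after each gene was scaled to mean 0 and SD 1 over the 15 libraries, which share groups and so are not independent points. Rfx2 and Sox30 lay 0.447 apart, and Crem lay nearest to Fhl5 among the members, at 0.576, rank 415 of 13612 named genes. Tcfl5 lay 0.578 from Tbpl1 and 0.606 from Mybl1, and Kif17 lay 0.690 from Sox30 and 0.718 from Fhl5. Over all named genes the nearest to Crem was Spam1, a sperm surface hyaluronidase, at 0.221, followed by Adam26b and Fam24b, where the median gene lay at 1.24. The nearest to Rfx2 was Wdtc1 (0.163), to Sox30 Fam53c (0.158), to Mybl1 Ift80 (0.131), to Fhl5 Cep57 (0.262) and to Kif17 Selenov (0.335). For Tbpl1 it was Lancl2 (0.232), for Taf7l Rer1 (0.263) and for Tcfl5 Gmcl1 (0.246).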

How the data were processed

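Testis RNA of 15 libraries in 5 groups was sequenced by the authors, who deposited 1 table of FPKM values per gene and library. The submitters' processing notes name the mouse build mm10, and the study's methods name SOAPaligner 2.20 and an RPKM formula. Strand handling and the treatment of reads shared by related genes are not given in the sources used here. Groups were taken from the titles. The description of the second M5 library names the first M5 column, and its title was followed. Symbols were matched for 21143 of 23510 identifiers. Genes with a mean FPKM of at least 1 over all libraries were tested on log2(FPKM + 1) with limma 3.58.1 (R 4.3.3; empirical Bayes with an intensity trend), on the 2 groups compared only, with Benjamini-Hochberg adjustment over 14514 genes. Differences on this scale understate changes of low genes. The test was checked on simulated data.

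The members, gene lists and tests were chosen with earlier results of these data known. Text names the levels of all members, the differences of Crem, of called members and of the 3 lowest p-values per comparison, and from each list up to 4 called genes or otherwise the 1 with the lowest p. Spermatid, marker and pathway lists were named from textbook knowledge. Alternatives were a pseudocount of 0.1, no filter, a minimum of 5 FPKM, median centring, all 5 groups in 1 fit, a replicate block, each library left out, Con as the control and, added after seeing the data, removal of the GC trend by lowess (span 0.3). Receptor transcripts were described without a test. The values carry no counts, so no counting interval was computed.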

Additional observations from a re-analysis of the deposited data

Results flagged for a closer look

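Rfx2 and Sox30 differed between the M5 and M1 knockdown groups in the test of that difference itself, at -0.39 (adjusted p = 0.0164) and -0.38 (adjusted p = 0.0187) on the log2(FPKM + 1) scale with limma. All 3 M5 libraries lay below all 3 M1 libraries for both genes, and the groups did not overlap in 33.7% of tested genes. With each library left out in turn, Rfx2 ran from -0.41 to -0.35 and Sox30 from -0.41 to -0.36, and each call was lost in most of these fits. Neither gene was called with median centring, with a replicate block or with the GC trend removed.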

How the results depend on the processing

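Crem was not called in M1, M3 and M5 against MNC under every setting that kept MNC as the control. The number of members called in M5 against MNC (3) was 0 with median centring, 0 after removal of the GC trend, and 0 to 3 with 1 library left out. In MNC against Con (4) it was 0 to 5 with 1 library left out, and in M5 against M1 (2) it was 0 to 3 with 1 library left out, 0 with median centring and 0 once GC was accounted for. With Con as the control, 6 members were called for M1 and 2 for M3, against 0 each with MNC. Same-numbered libraries did not pair (correlations of deviations from -0.399 to 0.177), and a replicate block left 0 members called in M5 against MNC, 0 in MNC against Con and 0 in M5 against M1, with 14, 10 and 39 genes in all against 820, 2967 and 980. It changed no other member count. With Con as the control, Kif17 changed sign to 0.31 in M5, 0.55 in M1 and 0.30 in M3, Tbpl1 to -0.11 in M1 and -0.018 in M3, and Sox30 to 0.10 in M3. Crem changed sign to -0.044 in M5 against MNC with the GC trend removed. In M5 against M1 it changed sign to -0.061 with centring and -0.10 once GC was accounted for, and ran from -0.036 to 0.041 with 1 library left out. In M5 against M3 it ran from -0.060 to 0.017. The cause of these changes was not tested. Over all genes, the calls were 182 (centred), 88 (GC trend removed) and 2424 (all 5 groups in 1 fit) in M5 against MNC, 252 and 116 (centred, GC trend removed) in M5 against M1 and 1869 (centred) in MNC against Con, and 4969, 3210 and 3143 for M1, M3 and M5 with Con as the control. Leaving out 1 library moved the calls between 35 and 946 in M5 against MNC, 8 and 2497 in MNC against Con, and 56 and 1690 in M5 against M1. The read depth behind each value is unknown, and 3 libraries a group limit the precision.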

Other observations

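The interferon response genes, chosen as a list of markers, differed between the control groups in which the members were compared. All 7 tested genes were called higher in MNC than in Con, beside 8.03% of all tested genes, with a median difference of 1.08 on the log2 scale. Irf7, an interferon-induced transcription factor, stood at 8.74 against 1.47 FPKM (1.93, adjusted p = 0.0162). The summed FPKM of the list was 14.3 to 14.7 in Con, 33.3 to 59.7 in MNC, 17.6 to 32.3 in M1, 19.9 to 34.6 in M3 and 28.5 to 84.9 in M5. None of the 7 was called in M1, M3 or M5 against MNC by limma, where 0, 1 and 820 of 14514 tested genes were. All 7 stood lower in M1 and in M3 than in MNC, with medians of -0.66 and -0.63. In M5 against MNC, 5 stood higher and 2 lower.

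Crisp1, an epididymal secretory gene, averaged 15.8 FPKM in Con, 0.03 in MNC, 0.06 in M1, 8.37 in M3 and 0.10 in M5. It was 1 of 2 tested genes in a list of 6 epididymal genes. The other, Cst8, went the other way, at 184 FPKM in Con and 232 in MNC. Lcn5, Lcn8, Adam7 and Defb20 did not pass the filter and averaged higher in Con than in MNC. The part of Crisp1 in the differences of the members was not tested.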
